A study of Mus musculus with 5 samples.

Results

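The comparison described here sets the ESC lines #620-2 and #620-6 against RF8, #757-1 and #757-2, gene by gene on the autosomes. The lines were grouped by their line number, whatever their genotype, so the pair holds 2 of the 5 lines of the series and the other group 3. Of 19504 genes with a symbol on the array, 18589 had a probe on chromosomes 1 to 19, and 13500 of these passed the filter on dim probes. #620-2 was a wild-type line and #620-6 an ECAT11EGFP/EGFP line, in which the coding sequence of ECAT11 is disrupted by EGFP, and both carried the label female and a mixed C57BL6/129sv origin. RF8 was a wild-type male line of 129sv origin. #757-1 and #757-2 were ECAT11EGFP/EGFP male lines of mixed C57BL6/129sv origin. Each line was grown with LIF on gelatin and gave a single one-colour Agilent array, so a line is also 1 sample. All lines other than RF8 were derived on SNL feeder cells, a mouse fibroblast line. No probe on the array was named ECAT11 or L1td1, its other name, so the disrupted transcript is not analysed here.

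ESCs are cells of the early embryo held in culture before they choose a lineage. The transcription factors Pou5f1, Sox2 and Nanog keep them undifferentiated, LIF signals in favour of that state, and FGF-ERK signalling moves them towards the epiblast that forms the body. Female ESCs carry an active pair of X chromosomes, and are known as a class for lower DNA methylation and lower activity of the de novo methyltransferases than male ESCs. DNA methylation in turn keeps a set of germline genes silent in other cells. Genes of connective tissue, such as collagens, are typical of fibroblasts, on which many ESC lines are derived.

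Values are the log2 of the background-corrected signal divided by the 75th percentile of the array, so 0 is the 75th percentile itself. They compare a probe between lines and do not rank genes. The number of arrays limits the precision, and the smallest p that an exact permutation test of 2 against 3 lines can give is 0.1. The tests are therefore limma fits with Benjamini-Hochberg adjustment over all 25638 probes that passed the filter. The arrays lay on 2 slides. Slide 1 held RF8 and both 620 lines, with 26362 to 27135 probes well above background, and slide 2 held #757-1 and #757-2, with 22044 and 21242. The label female, the line number and part of the slide coincide with the pair, so sex and line pair cannot be told apart.

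The sex labels were checked first. Xist, the RNA that coats a silenced X chromosome, was well above background in #620-2 (-2.05) and #620-6 (-0.72) and on none of the other arrays. The Y-linked genes Ddx3y, Eif2s3y, Kdm5d and Uty were well above background in RF8, #757-1 and #757-2 and in neither 620 line. The median of 707 X-linked probes lay 0.19 above the 5-line mean in #620-2 and 0.44 above it in #620-6, and between -0.23 and -0.19 in the other lines. Of 919 X-linked probes tested, 34 were called higher in the 620 lines and 0 lower, which is 3.7% higher and 0% lower, with limma. Xist itself had a limma adjusted p of 0.0525 and was not called. At an X shift of 0.19, #620-2 thus stood between #620-6 and the male-labelled lines. The 8 ESC markers, among them Pou5f1, Sox2 and Dppa5a, were well above background on all 5 arrays, and their summed signal was 540 and 463 times the 75th percentile in #620-2 and #620-6 against 470 to 524 in the others.

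On the autosomes calls ran in both directions. Of 24354 autosomal probes tested, 232 were called higher in the 620 lines (0.953%) and 54 lower (0.222%). A call required more than 2-fold and an adjusted p below 0.05. Of the 232, 151 came from the 4664 autosomal probes that passed the filter through the 620 lines alone, a route that favours higher calls. Of those 4664 probes, 1 was called lower. Slide 2, which holds 2 of the other lines, had the higher detection limit. Among the 19655 autosomal probes well above background on all 5 arrays, 81 were called higher (0.412%) and 53 lower (0.27%). By the brightest probe of each gene, 153 genes were called higher (1.13%) and 37 lower (0.274%). In all 286 called probes the groups did not overlap, which also held for 39.7% of all autosomal probes tested.

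**Figure D1:**
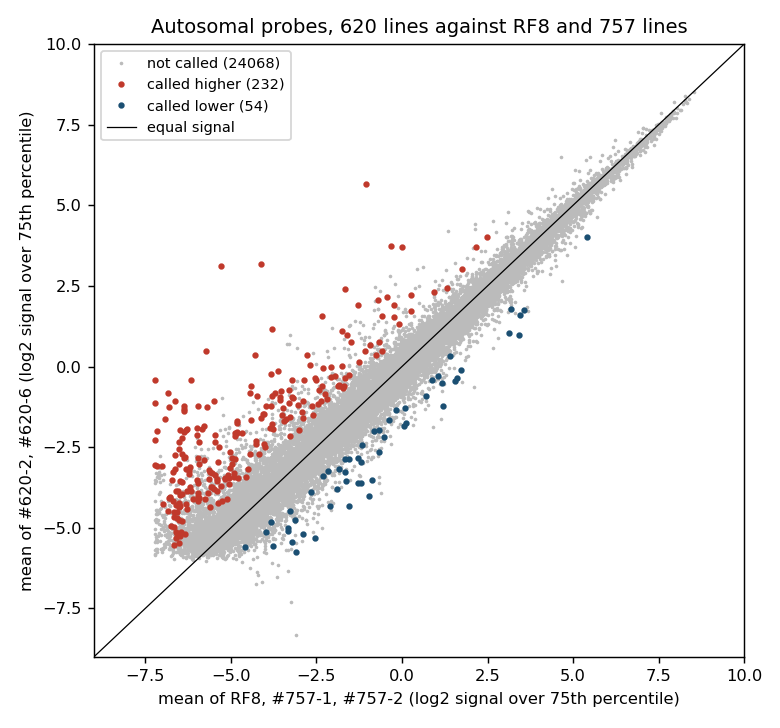
Mean log2 signal of #620-2 and #620-6 (vertical) against that of RF8, #757-1 and #757-2 (horizontal), each over the 75th percentile of its array, for the 24354 autosomal probes tested. Red points are the 232 probes called higher in the 620 lines, many of them at the dim left edge, and blue points the 54 called lower.

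The calls needed both lines of the pair. Without #620-2, and again without #620-6, limma called 0 autosomal probes, while 1979 and 1721 were past 2-fold at an unadjusted p under 0.05. Without RF8 342 were called, without #757-1 28 and without #757-2 24. With the slide as a block, which sets the pair against RF8 on slide 1, 219 were called, 87 of them among the 286. All 286 kept their direction, which was fixed in advance because their groups did not overlap. The 286 also had the same sign in the wild-type lines (#620-2 minus RF8) and in the ECAT11EGFP/EGFP lines (#620-6 minus the mean of #757-1 and #757-2). Groups that do not overlap fix that outcome in advance, so it says nothing about genotype. Whether the difference depends on genotype cannot be decided from these arrays. Only #757-1 and #757-2 share both group and genotype, and every other line stands alone in its combination.

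Among probes seen on every array, S100a4, which codes for a calcium-binding protein of motile and mesenchymal cells, had the largest rise. It read 5.61 in #620-2 and 5.70 in #620-6, against -0.07 in RF8, -1.67 in #757-1 and -1.41 in #757-2. Both 620 lines thus lay far above the highest other line, RF8. The log2 difference was 6.70 ± 0.51 (SE), or 104-fold, with a limma adjusted p of 0.0195. Fbln2, a fibulin of the extracellular matrix, read 2.33 and 2.46 in the 620 lines and -1.59, -1.87 and -1.54 in RF8, #757-1 and #757-2. Its rise of 4.06 ± 0.16 had a limma adjusted p of 0.00357 and was nearly equal in both 620 lines. Cd44, the hyaluronan receptor, read 1.47 and 1.64 in the pair and -1.43 in RF8, -3.07 in #757-1 and -2.53 in #757-2, a rise of 3.90 ± 0.50. Timp2, an inhibitor of matrix metalloproteinases, was at 3.71 and 3.67 in the pair and at 0.88 in RF8, -0.51 in #757-1 and -0.34 in #757-2, a rise of 3.68 ± 0.45. For S100a4, Cd44 and Timp2 the nearest of the other lines was RF8.

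The remaining genes of this ranking belong to other classes. Stra8, which germ cells need to enter meiosis, rose by 4.05 ± 0.50 and is described with the germline genes. Oaf read -0.16 and -0.28 in the pair and -3.76, -4.03 and -3.69 in the others, a rise of 3.60 ± 0.16. Prim2, the large subunit of DNA primase, was at 1.92 and 1.87 in the pair and between -1.36 and -1.22 in the others, a rise of 3.18 ± 0.12 with a limma adjusted p of 0.00357. For Oaf and Prim2 the lines within each group lay close together.

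Another 6 genes, chosen by their bound, were well above background on both 620 arrays and on none of the other 3. For these the fold is a lower limit, set by the dimmest signal that counts as above background. Nrn1, which codes for the neurite-growth protein neuritin, read -0.43 in both 620 lines and was at least 21.9-fold higher in them. Vcam1, a cell adhesion molecule, read -0.81 and -0.85 and was at least 16.9-fold higher. Il1rl1, the receptor for IL-33, was at least 14.4-fold higher, Mmp3, the metalloproteinase stromelysin, at least 13.7-fold, Nr2f2, a nuclear receptor of mesenchyme and veins, at least 12.9-fold, and Medag at least 12.6-fold. Limma's adjusted p lay between 0.00336 for Nrn1 and 0.0323 for Mmp3 and Medag, but these 6 genes passed the filter through the 620 lines alone, so the values are a description and support nothing. Second probes of Vcam1, Medag and Nr2f2 pointed the same way and were not called.

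Some of the largest differences belonged to genes seen faintly in 1 or 2 of the other lines, which neither rule names. They were chosen after their values were seen. Tm4sf1, a membrane protein of endothelial cells, read 2.96 and 3.27 in the pair and -4.78 in RF8, where it was above background, and it was below background in both 757 lines. Cavin2, a coat protein of caveolae, read 3.15 and 3.18 in the pair and between -4.88 and -3.60 in the others. Grem1, a secreted BMP antagonist, read 0.41 and 0.56 in the pair and between -6.19 and -5.28 in the others. Sox9, a factor of cartilage, read -0.69 and -0.55 in the pair and -4.92 to -3.96 in the others. Nfix, a factor of the nuclear factor I family, was at -1.87 and -1.82 in the pair and at -5.90 to -5.59 in the others. Runx2, the factor of bone formation, was below background outside the pair and at least 3.51-fold higher in it. All of these genes passed the filter through the 620 lines alone.

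The list of fibroblast genes moved in part. All 25 genes had a tested probe, and 6 were called higher and 0 lower, where 1.13% of all autosomal genes were called higher. Of the 6, 4 were above background on all 5 arrays, and Prrx1 and Lox passed the filter through the 620 lines alone, where they are high. Past 2-fold at an unadjusted limma p under 0.05 were 10 higher and 1 lower, against 707 and 345 of all 13500 autosomal genes. These counts include genes that passed the filter through the 620 lines alone. The median log2 difference of the list was 1.20, against -0.03 over all autosomal genes tested. It was 0.50 without #757-1, 1.81 without RF8 and 0.83 over the 19 genes above background on every array. Under normexp background correction it was also smaller, as given in the last section. Besides S100a4 and Fbln2, the called genes were Prrx1, a homeobox factor of limb mesenchyme (3.88 ± 0.27), Lox, which crosslinks collagen (3.003 ± 0.34), the proteoglycan Dcn (2.45 ± 0.30) and the protease inhibitor Timp3 (2.16 ± 0.21). Dcn read -0.54 and -0.28 in the pair and -3.30, -2.90 and -2.38 in RF8, #757-1 and #757-2. Prrx1 was above background in both 620 lines and in RF8, as was Lox. With the slide as a block Dcn lost its call (limma adjusted p = 0.0538).

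The other defining fibroblast genes did not pass the test. Col1a1, a chain of type I collagen, read 0.80 and 0.56 in the 620 lines, 2.97 in RF8, -0.01 in #757-1 and 1.15 in #757-2, with the highest value in RF8. Its partner chain Col1a2 was likewise highest in RF8, at 2.51, with 1.62 and 1.54 in the pair, -1.38 in #757-1 and -0.05 in #757-2. Col1a1 differed by -0.69 ± 0.88 and Col1a2 by 1.22 ± 1.15. Postn differed by -0.41, Thy1 by 1.68 (adjusted p = 0.0816, limma) and Col3a1 by 2.60 (adjusted p = 0.071, limma). Lum was above background in both 620 lines and in none of the others. It read -3.25 and -5.38 in the pair and -8.06, -6.76 and -5.49 in RF8, #757-1 and #757-2. The values of #620-6 and #757-2 were thus close. Their background flags differed because the lowest signal counted as above background was -6.23 in #620-6 and -4.23 in #757-2. Tagln, an actin-binding protein of smooth muscle and fibroblasts, read 3.07 and 2.21 in the pair and 5.28, 4.59 and 4.19 in RF8, #757-1 and #757-2, a difference of -2.04 ± 0.42 with a limma adjusted p of 0.0956.

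The summed signal of the 25 fibroblast genes was 90.4 and 88.6 times the 75th percentile in #620-2 and #620-6. It was 72.8 in RF8, 41.8 in #757-1 and 38.2 in #757-2. These are sums of linear signal, and in the pair S100a4 alone gave the larger part of them. On the log2 scale S100a4 read 5.61 and 5.70 in the pair, against -0.07, -1.67 and -1.41 in RF8, #757-1 and #757-2. This sum thus does not describe the list as a whole. The sum of the 7 defining markers Col1a1, Col1a2, Col3a1, Lum, Dcn, Postn and Thy1 was 9.41 and 8.98 in the pair, inside the range of the others, which ran from 2.34 in #757-1 to 15.3 in RF8. The part of fibroblast RNA in the differences reported here was not tested. In whole cultures, more cells of a type and more RNA per cell cannot be told apart.

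**Figure D2:**
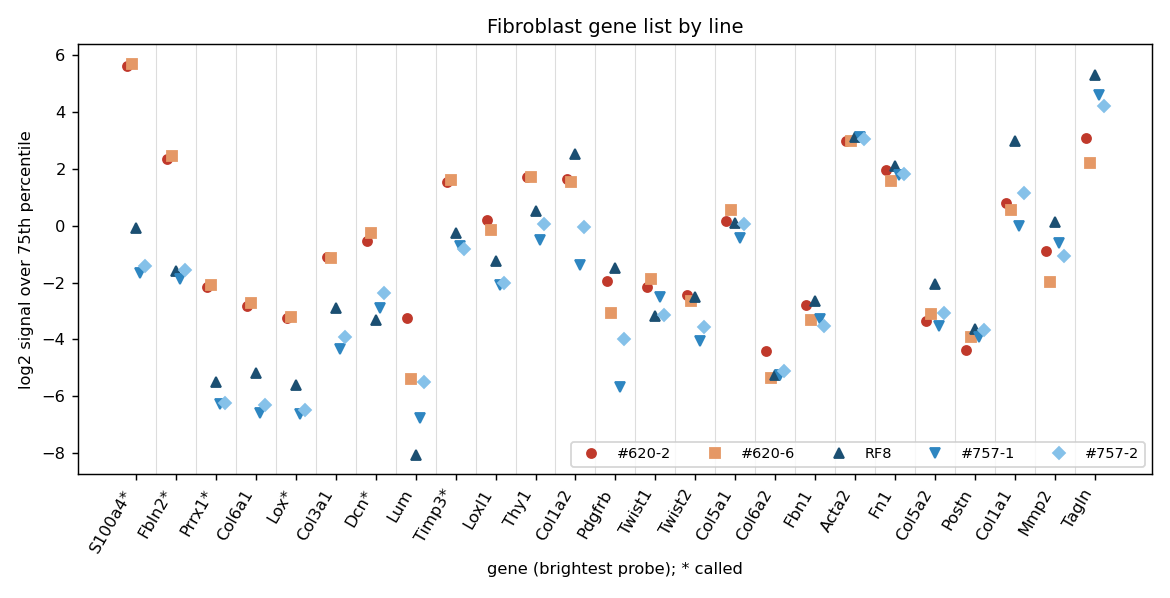
Log2 signal over the 75th percentile of each array for the 25 genes of the fibroblast list, 1 point per line, sorted by the difference between groups, with a star on the 6 called genes. S100a4 at the left reads 5.61 and 5.70 in the 620 lines, while Tagln at the right reads lower in them, and Col1a1 and Col1a2 are highest in RF8.

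Genes called lower in the 620 lines formed a smaller group, and 53 of the 54 probes were above background on every array. With the slide as a block, 1 of the 8 largest, Cyp2j13, kept its call, while limma's adjusted p for the others ran from 0.0538 for Prom1 and Kcnh8 to 0.13 for Crispld1. Of the 7 genes with the largest rise described above, 6 kept theirs, and Stra8 did not. Cyp2j13, a cytochrome P450, read -4.37 and -3.69 in the pair and -0.45, -1.12 and -1.32 in RF8, #757-1 and #757-2, a fall of 3.06 on the log2 scale by that probe, with a limma adjusted p of 0.0404. A second probe of Cyp2j13 differed by -0.83 and was not called. Hes5, a target of Notch signalling in neural progenitors, read -3.20 and -3.82 in the pair and -0.97, -0.98 and -0.65 in the others, a difference of -2.64 ± 0.24. Prom1, the stem cell surface protein CD133, read -3.62 and -3.59 against -1.14, -1.02 and -1.47, a difference of -2.39 ± 0.18, and both of its probes were called. The lines of each group lay close together for Hes5 and Prom1.

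Slc15a2, a peptide transporter, differed by -2.80 ± 0.35, Crispld1 by -2.79 ± 0.36, Kcnh8, a potassium channel, by -2.65 ± 0.19, Myl9, a myosin light chain of smooth muscle, by -2.43 ± 0.27 and Stmn4, a microtubule regulator of neurons, by -2.42 ± 0.26. Crispld1 was lower in #620-6 (-4.90) than in #620-2 (-3.76), and both lay below the lowest other line, at -1.64. Cldn7, Cdh3 and Cd24a were also called lower, were picked after their values were seen and were not called once slide was a block, at limma adjusted p of 0.082 to 0.105. Cldn7, a claudin of tight junctions, read 1.92 and 1.59 in the pair and 3.33 to 3.70 in the others. Cdh3, the placental cadherin, was at -1.27 and -1.32 in the pair and at -0.08 to 0.28 in the others. Cd24a read 0.95 and 1.16 against 2.76 to 3.42. Cdh3 lies on chromosome 8, where the medians of the lines did not overlap between the groups, and Cldn7 on chromosome 11, where they did, as given below.

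**Figure D3:**
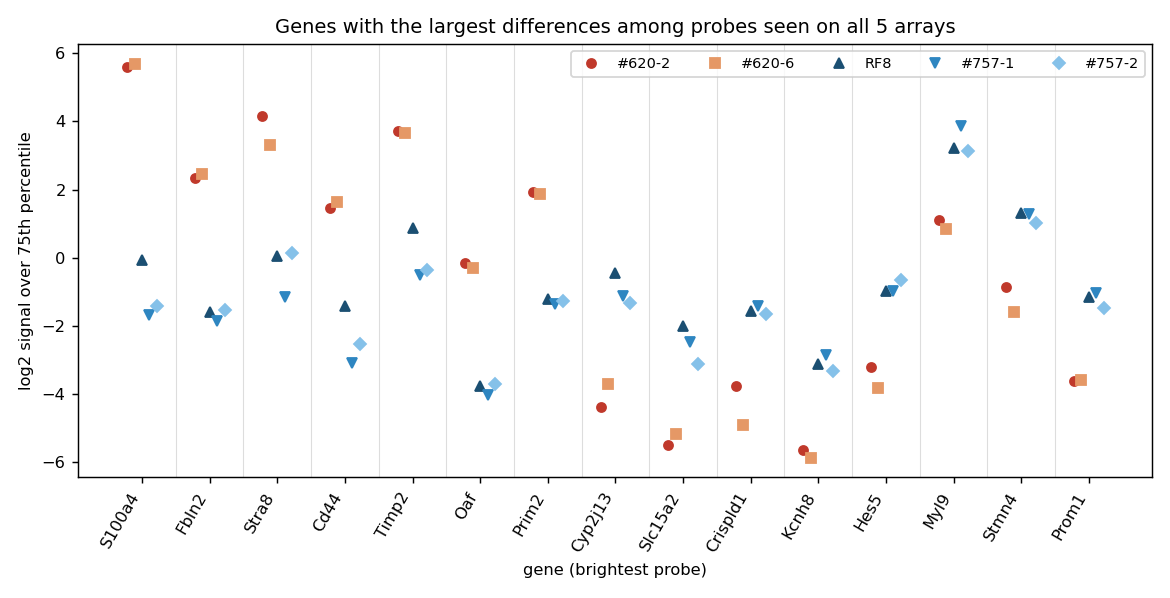
Log2 signal over the 75th percentile in each line for 7 of the 8 called genes with the largest rise (left) and the 8 with the largest fall (right) among probes well above background on all 5 arrays. The red and orange points of #620-2 and #620-6 lie apart from the blue points of RF8, #757-1 and #757-2 for every gene shown, which the rule for choosing them required.

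In the DNA methylation machinery, Dnmt3b was the gene called, and it fell. It codes for a de novo DNA methyltransferase. Dnmt3b read 4.17 in #620-2 and 3.89 in #620-6, against 5.51 in RF8, 5.43 in #757-1 and 5.24 in #757-2. The difference was -1.36 ± 0.16, or 2.57-fold, with a limma adjusted p of 0.0423, and of 0.0956 with the slide as a block. All 18 genes of this list were tested, 0 were called higher and 1 lower, where 1.13% and 0.274% of all autosomal genes were, and the median difference was -0.005. Dnmt3a, the other de novo enzyme, read 3.08 in #620-2 and 1.85 in #620-6, against 3.51, 3.02 and 2.93 in RF8, #757-1 and #757-2, so #620-6 alone was low. Dnmt3l, their catalytically inactive cofactor, differed by 0.61 ± 0.41 and Uhrf1, which guides maintenance methylation, by 0.10 ± 0.16. The oxygenases Tet1 and Tet2, which act on methylated cytosine, differed by -0.03 ± 0.14 and 0.88 ± 0.21, and neither passed the test.

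The germline genes that DNA methylation silences held 1 call, Stra8. It read 4.16 in #620-2 and 3.32 in #620-6, against 0.06, -1.15 and 0.16 in RF8, #757-1 and #757-2, a 16.5-fold rise with a limma adjusted p of 0.0434, and of 0.126 with the slide as a block. Of 36 genes in this list 32 were tested, and 1 was called higher and 0 lower, where 1.13% and 0.274% of all autosomal genes were. At an unadjusted limma p under 0.05, 8 were past 2-fold higher and 0 lower, against 707 and 345 of all 13500 autosomal genes. The median difference of the list was 0.54, which depended on #620-6, since it was 0.08 without that line and 0.99 without #620-2. Mael, which protects the germline from transposons, read 1.85 and 1.73 in the pair and 0.71, 0.49 and 0.83 in the others, a difference of 1.11 ± 0.16 with a limma adjusted p of 0.0542. Both 620 lines lay above the others for Mael, as for Stra8.

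Between the 2 lines of the pair, 18 of the 32 germline genes read higher in #620-6 and 14 lower. The 3 named next were picked after their values were seen. Smc1b, a cohesin subunit of meiosis, read 2.57 in #620-6 and 0.03 in #620-2, against -1.82 to -0.64 in the others. Dazl, an RNA-binding protein of germ cells, read 0.97 in #620-6 and -1.68 in #620-2, which lay inside the range of the others, -2.29 to -0.82. Hormad1, a protein of the meiotic chromosome axis, read 0.62 in #620-6 and -1.53 in #620-2, against -1.91 to -1.47. #620-6 differs from #620-2 in its ECAT11 genotype and was 1 line, so this was not tested. Sycp3, of the same chromosome axis, differed by 0.05 ± 0.44 between the groups, and Tuba3a, the brightest gene of the list, by -0.15 ± 0.13. By its other tested probe Tuba3a differed by 0.75, which was not called.

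The promoters of the genes that carry these differences are shown because DNA methylation acts at CpG dinucleotides, which are in capitals. Each run is the 250 bases before the start site, 5′ to 3′ on the gene's strand, from RefSeq in build GRCm38.p6, at chr2:153649199-153649448 for Dnmt3b, chr6:34920698-34920947 for Stra8 and chr3:90603520-90603769 for S100a4, all on the plus strand.
Dnmt3b: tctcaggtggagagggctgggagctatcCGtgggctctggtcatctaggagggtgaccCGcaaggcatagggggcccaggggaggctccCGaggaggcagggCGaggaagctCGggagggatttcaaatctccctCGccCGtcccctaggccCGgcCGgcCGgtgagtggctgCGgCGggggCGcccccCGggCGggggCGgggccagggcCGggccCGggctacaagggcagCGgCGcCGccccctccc
Stra8: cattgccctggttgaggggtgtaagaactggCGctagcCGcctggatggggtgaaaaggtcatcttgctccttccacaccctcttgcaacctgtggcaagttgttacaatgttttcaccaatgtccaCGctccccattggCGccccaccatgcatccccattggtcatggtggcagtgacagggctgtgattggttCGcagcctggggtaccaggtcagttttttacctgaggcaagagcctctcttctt
S100a4: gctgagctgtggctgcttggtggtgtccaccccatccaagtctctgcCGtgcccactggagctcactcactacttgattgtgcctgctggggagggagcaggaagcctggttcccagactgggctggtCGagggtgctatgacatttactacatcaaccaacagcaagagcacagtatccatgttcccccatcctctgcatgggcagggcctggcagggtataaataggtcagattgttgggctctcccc
The window of Dnmt3b holds 21 CpGs, that of Stra8 5 and that of S100a4 2. Of 32851 promoter windows of this length, 16.3% hold at least 21, 55.6% at least 5 and 81.2% at least 2. These counts describe the letters. Methylation itself was not measured.

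The FGF-ERK list had 27 of 31 genes tested. By the brightest probe of each gene limma called 0 higher and 0 lower. At an unadjusted limma p under 0.05, 0 were past 2-fold higher and 3 lower, against 707 and 345 of all 13500 autosomal genes. The median difference of the list was -0.05. Its lowest members were feedback and early response genes. Dusp4, a phosphatase of ERK, read 0.54 and 0.09 in the pair and 2.22, 2.16 and 1.37 in RF8, #757-1 and #757-2, a difference of -1.60 ± 0.32 with a limma adjusted p of 0.0934. A second, dimmer probe of Dusp4 was called, at -1.97 ± 0.22 with a limma adjusted p of 0.0403. Egr1 differed by -1.31 ± 0.25 and Egr2 by -1.51 ± 0.27, both early response factors, with limma adjusted p of 0.0815 and 0.0765. The groups did not overlap for these 3 genes, as for 41.7% of all autosomal genes tested. Dusp6 (-0.56 ± 0.31), Spry4 (0.56 ± 0.38) and Etv4 (0.62 ± 0.37), which respond to the same pathway, did not pass the test either.

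Naive pluripotency genes gave 0 limma calls in either direction among 29 tested, with a median difference of 0.12. At an unadjusted limma p under 0.05, 2 were past 2-fold higher and 0 lower, against 707 and 345 of all 13500 autosomal genes. Klf4, a factor of the naive state, read 6.86 and 6.14 in the pair and 4.15, 4.76 and 5.01 in RF8, #757-1 and #757-2. That difference of 1.86 ± 0.35 had a limma adjusted p of 0.0816. Tbx3 read 4.44 and 4.42 in the pair and 1.18, 2.26 and 2.93 in the others, with a limma adjusted p of 0.111, and Nanog read 3.95 and 4.53 against 2.53, 3.43 and 3.70. In all 3 genes both 620 lines lay above the others, and 41.7% of all autosomal genes tested had groups that did not overlap. Pou5f1 differed by 0.36 ± 0.14, Sox2 by 0.08 ± 0.20 and Dppa5a by 0.12 ± 0.16. The dimmer probe of Dppa5a differed by 0.71 and was not called. Zfp42, the marker also called Rex1, did not follow the pair, since it read 4.003 in #620-6 and 3.87 in #757-2 and between 6.55 and 6.998 in the other 3 lines.

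Genes of the primed epiblast and early lineages had 1 call among 17 tested, lower in the 620 lines, where 0.274% of all autosomal genes were called lower. At an unadjusted limma p under 0.05, 1 was past 2-fold higher and 6 lower, against 707 and 345 of all 13500 autosomal genes. The median difference of the list was -0.18. Cdh2, the neural cadherin, read -2.08 and -1.84 in the pair and -0.59, -0.61 and -0.83 in the others, a difference of -1.28 ± 0.16 with a limma adjusted p of 0.0432, and of 0.103 with the slide as a block. Fgf5, a marker of primed epiblast, read -1.51 and -2.27 against -0.51, 0.22 and -0.05, with a limma adjusted p of 0.0785. Nes, the intermediate filament nestin, read -0.12 and -0.85 against 2.12, 1.41 and 1.19, with a limma adjusted p of 0.0762. Pou3f1, the brightest of the list, differed by -1.07 ± 0.46.

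Extraembryonic endoderm genes had 2 calls among 18 tested, both higher in the 620 lines, where 1.13% of all autosomal genes were called higher. Both passed the filter through the 620 lines alone, and none of the 13 genes above background on all 5 arrays was called. The median difference was 0.22, and -0.02 over those 13. Past 2-fold at an unadjusted limma p under 0.05 were 5 higher and 0 lower, against 707 and 345 of all 13500 autosomal genes. These counts include genes that passed the filter through the 620 lines alone. Pdgfra, a growth factor receptor that this endoderm shares with mesenchyme, read -1.99 and -1.95 in the pair, was below background in the other 3 lines and was at least 7.67-fold higher. Sox17, a factor of endoderm, read -2.64 and -2.998 against -4.99, -4.95 and -4.93 in RF8, #757-1 and #757-2. It was above background in RF8 and below it in both 757 lines, so its rise of 2.13 ± 0.16 rests partly on undetected signal. Sox17 lost its call with the slide as a block (limma adjusted p = 0.0531). Its partners in that lineage did not pass the test, Gata4 at 0.25 and Gata6 at 1.60, and Apoe, the brightest of the list, differed by 0.27 ± 0.37. The trophoblast list gave 0 limma calls among 11 tested, with 0 past 2-fold at an unadjusted p under 0.05. Its median was 0.23, or -0.65 without #620-6, and Krt18, a keratin, differed by -0.84 ± 0.44.

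Imprinted genes, which are expressed from 1 parental copy, gave 0 limma calls among 35 tested. At an unadjusted limma p under 0.05, 2 were past 2-fold higher and 2 lower, against 707 and 345 of all 13500 autosomal genes. The median difference of the imprinted genes was -0.07, and 0.23 without #620-2 and 0.02 without RF8. Dlk1 read 2.53 and 2.61 in the pair, 0.93 in RF8 and -0.69 and -0.83 in the 757 lines, a difference of 2.77 ± 0.57 with a limma adjusted p of 0.0969. H19 and Peg3 varied widely from line to line. H19 read 0.22 in #620-2 and 3.01 in #620-6, and -0.33, 1.43 and 1.93 in the others. Igf2 differed by -0.99 ± 0.51, Mest by -0.62 ± 0.25, Peg3 by 1.13 ± 0.74 and Cd81, the brightest of the list, by 0.41 ± 0.17.

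Interferon-responsive genes had 1 call among 31 tested, higher in the 620 lines, where 1.13% of all autosomal genes were called higher. At an unadjusted limma p under 0.05, 3 were past 2-fold higher and 6 lower, against 707 and 345 of all 13500 autosomal genes. The median difference of the list was -0.41. Ifit3 was the call. It passed the filter through the 620 lines alone, was below background outside the pair and was at least 1.34-fold higher in it, a bound under the 2-fold that a call required. Several genes of antigen processing and interferon response read lower in the 620 lines without passing the test. Psmb8, an immunoproteasome subunit, read -1.08 and -2.14 in the pair and 2.18, 0.23 and 1.00 in RF8, #757-1 and #757-2, with a limma adjusted p of 0.119. Gbp2, a guanylate-binding protein, read -1.03 and -1.42 against 2.35, 0.14 and 1.10, and RF8 was the highest line for both. Bst2, the brightest of the list, differed by -0.83 ± 0.21.

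Of the 2-cell-like list, 5 of 22 genes were tested and limma called 0. At an unadjusted limma p under 0.05, 2 were past 2-fold higher and 0 lower, against 707 and 345 of all 13500 autosomal genes. All 5 differences of the list lay above 0, with a median of 1.81, which was smaller under normexp background correction, as given in the last section. Zscan4c, a marker of that state, read 0.67 in #620-2 and 1.97 in #620-6, against -0.25, -1.36 and -0.83 in the others, a difference of 2.13 ± 0.50 with a limma adjusted p of 0.117. Members of the Zscan4 family are near-identical, so this signal may be shared among them.

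**Figure D4:**
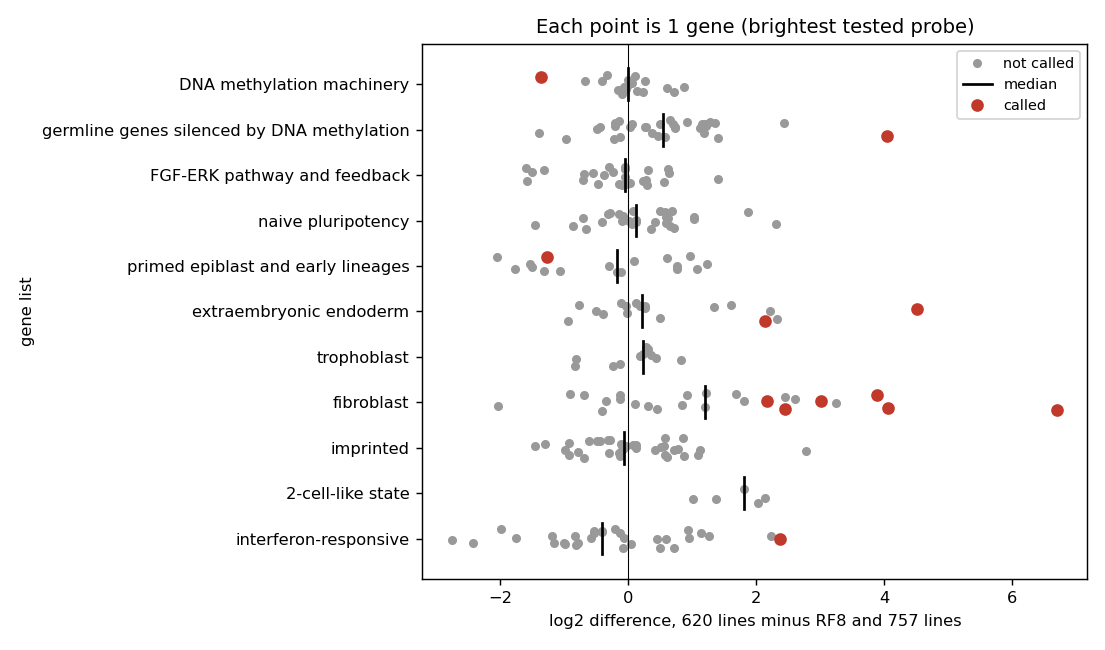
Log2 difference of each tested gene (620 lines minus RF8 and 757 lines) by list, with called genes in red and the list median as a bar. The fibroblast list holds 6 called genes of 25, 5 other lists hold 1 or 2, and the germline list has a median of 0.54 with 1 call.

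Whole chromosomes also differed between the lines. The median of 1082 probes on chromosome 8 lay at -0.18 in #620-2 and -0.24 in #620-6 relative to the 5-line mean, and at 0.25 in RF8, 0.18 in #757-1 and 0.02 in #757-2. The groups did not overlap there, as on 7 of 19 autosomes, and differed by -0.36. On chromosome 11 the median was -0.25 in #620-2 and 0.00 in #620-6, against 0.17 in RF8, -0.07 in #757-1 and 0.14 in #757-2, so the groups overlapped and #620-2 stood lowest. #620-2 was also lowest on chromosomes 10 (-0.14) and 18 (-0.13). These are medians of expression and were given no test. Of the 54 probes called lower, 11 lay on chromosomes 8 and 11, which is 0.327% of the 3361 tested there against 0.222% of all autosomal probes. With each line's chromosome median subtracted, an alternative added after these values were seen, 216 probes were called higher and 39 lower.

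**Figure D5:**
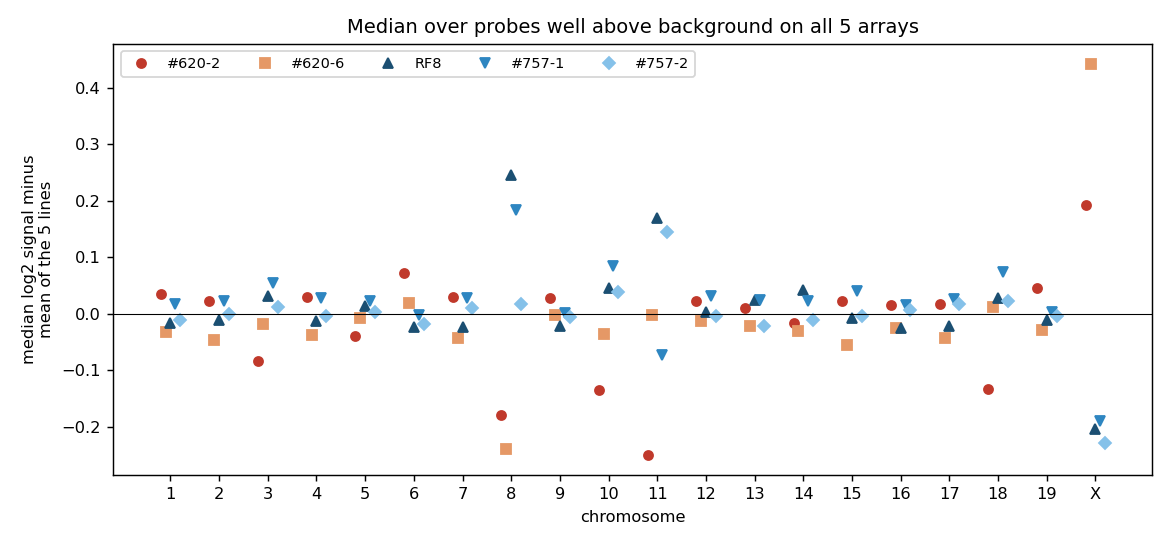
Median log2 signal of each line minus the mean of the 5 lines, by chromosome, for probes that passed the background flag in every line. Points lie near 0 for most autosomes, apart from chromosome 8, where both 620 lines lie at or below -0.18, chromosomes 10, 11 and 18, and X, where the 620 lines lie at 0.19 and 0.44.

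Among the autosomes, calls were most frequent on chromosome 1, at 36 higher and 7 lower of 1500 probes tested (2.87%), where 1.17% of all autosomal probes were called. Of 233 windows of 10 Mb with at least 20 probes above background on all arrays, the highest median difference, 0.25, was in the window from 130000001 to 140000000 on chromosome 6 in build mm7. There 9 of 70 probes tested were called, against the 1.17% of all autosomal probes, in a window picked as the extreme. The window holds the Klra family, which codes for the Ly49 receptors of natural killer cells. Klra7 read -2.18 and -1.81 in the 620 lines, was below background in the others and was at least 7.52-fold higher, and the pseudogene Klra13-ps read -2.41 and -2.27 against -5.42, -6.04 and -6.35. Both passed the filter through the 620 lines alone. Klra genes are similar in sequence and differ between mouse strains, so which copy was measured is uncertain. RF8 carries another strain label than the 620 lines, and the 757 lines carry the same one.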

How the data were processed

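The authors labelled RNA of 5 ESC lines with Cy3, hybridized it to Agilent mouse arrays, 1 per line, and deposited spot intensities from Feature Extraction 9.5.3.1, background-subtracted but not scaled between arrays, with flags for each spot, and normalized them in GeneSpring GX to the 75th percentile. Probe positions in the files are those of build mm7. A second file, of log2 values processed by the authors, was used as an alternative, and its differences between arrays matched the intensities with a slope of 1.00 and r of 1.00 over 20617 probes. Its columns have medians of -0.10 to 0.08, and it is shifted by a constant per probe whose origin is not given in the sources used here.

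Control spots (1639 of 45018 per array) were left out, marked spots were set missing (0.316% to 0.355%), and no spot was saturated. Each array was divided by its 75th percentile (692 to 797), log2 was taken and spots of a probe were averaged to 41174 probes. Probes were named by accession (22951), symbol or synonym (9758) through RefSeq, and 8465 kept the file's name. A probe was tested where it was well above background on both 620 arrays or on all 3 others. The pair was tested against the other lines with limma 3.58.1 (R 4.3.3), and the methods' t-test was an alternative, and 30 autosomal probes were fitted without an array with a marked spot. Figures used matplotlib 3.10.9. The code was tested on simulated data. Lines are the replicates, numbered in label order, and nothing says that cultures were repeated, so p-values measure the spread between lines.

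The genes named are the 8 called genes with the largest difference in each direction among probes above background on all 5 arrays, the 6 with the largest bound, every called gene of the lists, the brightest member of each list and a set of single genes (Dnmt3a to Ubd). Prdm14, Fgf4 and Ubd gave no tested value and are not analysed here. One gene that the rule named is not reported here. The other genes named were chosen after their values were seen. The members and lists were chosen with earlier results of these data known. Alternatives covered background correction, normalization, filter, covariates, test, adjustment and each line left out.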

Additional observations from a re-analysis of the deposited data

Results flagged for a closer look

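Probes without a position on chromosomes 1 to 19, X or Y were outside the comparison. Among the genes with a symbol that limma called there, 4 were above background on both 620 arrays and on none of the other 3. Genes with the same pattern that were not called are not counted. Prl2c3 and Prl2c5 are proliferins of placenta and growing fibroblasts. By the brightest probe of each, their mean log2 signals in the 620 lines were 3.16 and 3.17. They were at least 268-fold and 269-fold higher there by those probes. Other called probes gave lower bounds, 128-fold and 10.2-fold for Prl2c3 and 134-fold for Prl2c5. Both genes passed the filter through the 620 lines alone, so limma's adjusted p of 0.00868 and 0.0085 for the brightest probes supports nothing. Their sequences are close to each other, so the copies cannot be told apart. Klra1, of the Ly49 family, had a mean log2 signal of -2.26 in the 620 lines and was at least 6.27-fold higher. Cacng6, a calcium channel subunit, had a mean of -3.67 and was at least 2.33-fold higher. Groups of 2 and 3 lines were too small to look for a line far from the rest.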

How the results depend on the processing

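The 286 autosomal calls (232 higher, 54 lower) were within 1.5 times under normexp, quantile normalization, the deposited table, marked spots kept, the strain label, genotype or slide in the fit, the variance trend, autosomal adjustment, no fold threshold and chromosome medians subtracted, apart from lower calls as given next. Lower calls numbered 24 with the slide as a block, 94 with genotype as a covariate, 30 with the strain label, 97 with a variance trend and 35 with adjustment over autosomal probes. Without a filter 17 probes were called, all higher (0 lower), adjusting over probes above background on all 5 arrays gave 116 (71 higher), and Present on at least 1 array gave 87 (73 higher, 14 lower). The methods' t-test gave 1077 calls unadjusted (765 higher, 312 lower) and 2 after adjustment (1 each way). Leaving out a line gave 0 to 342 calls, 0 to 301 higher and 0 to 41 lower. A group left with 1 line is assumed to vary like the other. The median difference over all tested probes moved by under 0.05 under the scaling alternatives, and by -0.19 without a filter.

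Leaving out a line moved the X median difference (0.53) between 0.39 and 0.64, and list medians as follows: germline 0.082 to 0.99, FGF-ERK -0.19 to -0.0090, naive 0.11 to 0.31, extraembryonic endoderm 0.13 to 0.25, trophoblast -0.65 to 0.54, fibroblast 0.50 to 1.81, imprinted -0.13 to 0.23 and 2-cell-like 1.42 to 2.62. Normexp gave 0.11 for extraembryonic endoderm, 0.48 for fibroblast and 0.47 for 2-cell-like genes. Over probes above background on all 5 arrays extraembryonic endoderm gave -0.018 and fibroblast 0.83.

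None of 41 called genes named in the text reversed under any alternative, but calls were lost: 26 of 41 kept theirs with the slide as a block, 34 with genotype, 32 with the strain label, 32 without RF8, 11 without #757-1, 12 without #757-2 and 0 without either 620 line. For the called genes, groups without overlap excluded a reversal in advance with a line left out or with slide, strain label or genotype in the fit. Among genes not called, the sign turned with the strain label for H19 (-0.066), Apoe (-0.0014), Uhrf1 (-0.011), Sox2 (-0.079), Zfp42 (0.19) and Col1a1 (0.11), with the slide for Sycp3 (-0.58), Tet1 (0.045) and Col1a2 (-0.93), with genotype for Sycp3 (-0.11), and with chromosome medians subtracted for Tet1 (0.11). Leaving out a line gave Dazl -0.18 to 2.47, H19 -0.79 to 2.00, Apoe -0.099 to 0.63, Uhrf1 -0.011 to 0.16, Sox2 -0.079 to 0.19, Sycp3 -0.46 to 0.56, Tet1 -0.13 to 0.071, Zfp42 -1.80 to 0.99 and Col1a1 -1.38 to 0.11. The cause was not tested. No paired analysis was possible because the labels give the lines no shared replicate numbers.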
